A study of Homo sapiens with 4 samples.

Results

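The splicing of nascent transcripts from 10 RNA helicase genes was described: DDX5, DDX17, DDX3X, DDX21, DDX18, DDX24, DDX6, DDX39A, DDX39B and DHX9. They are DEAD and DEAH box genes outside the core spliceosome, chosen by name, and their introns were those of every annotated transcript of these genes in GENCODE release 29. This gave 235 unique introns of the 209481 in the tables, and 10 of 17770 genes. K562 cells, an established line from a chronic myeloid leukaemia, carried SF3B1 in its wild type form (WT) or with lysine replaced by glutamate at the mutated residue (K700E), and were harvested 4 days after doxycycline at 1 µg/ml was added to induce the modified allele. The labels give this induction for both groups alike and do not say what the WT samples expressed from it. Chromatin was isolated with α-amanitin present, polyadenylated and ribosomal RNA was removed from its RNA, and long reads were made from 2 samples per group. The comparison addresses how often introns of chromatin-bound RNA were spliced at their annotated sites in mutant against wild-type cells.

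DEAD box proteins use ATP to separate short RNA duplexes and to strip proteins from RNA, and different members act at each stage of an RNA's life. DDX5 and DDX17 are close paralogs that act together in transcription, splicing and microRNA processing, and DHX9, a DEAH box relative, opens long RNA duplexes and RNA-DNA hybrids in the nucleus. SF3B1, part of the U2 small nuclear ribonucleoprotein, grips the intron near its branch point, and K700E, recurrent in myeloid neoplasms, is known for altering the choice of 3′ splice site.

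DDX5 holds many short introns whose junction was often absent from its nascent RNA. The 3′ splice sites of 5 introns inside its coding region are shown, the ones of its 12 reference introns whose letters could be read. They were not picked by length or splicing. Each run gives the last 50 bases of the intron and 3 bases of the next exon, 5′ to 3′, with the AG that ends the intron in capitals. The letters come from GENCODE transcripts of DDX5 that keep the intron.
DDX5 intron 4 (chr17:64503869-64503982, minus strand): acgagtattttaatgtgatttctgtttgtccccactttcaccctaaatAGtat
DDX5 intron 6 (chr17:64503349-64503429, minus strand): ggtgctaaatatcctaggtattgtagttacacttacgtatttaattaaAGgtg
DDX5 intron 7 (chr17:64503099-64503187, minus strand): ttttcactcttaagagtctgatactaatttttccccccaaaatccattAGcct
DDX5 intron 9 (chr17:64502224-64502438, minus strand): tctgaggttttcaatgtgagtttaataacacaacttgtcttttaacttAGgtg
DDX5 intron 11 (chr17:64500774-64502009, minus strand): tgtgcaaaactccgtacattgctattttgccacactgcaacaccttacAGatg
C and T made up 75, 55, 75, 70 and 60% of the 20 bases before the AG of introns 4, 6, 7, 9 and 11. Intron 6 of DDX5, with the lowest of these shares, is 81 nt long.

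Counting only the most used of overlapping annotated introns with at least 10 reads in each sample, the least spliced of DDX3X are shown likewise for comparison. Intron 12 of DDX18 is added as the only DDX18 intron at that depth. All of these lie in the coding region.
DDX3X intron 5 (chrX:41341617-41342494, plus strand): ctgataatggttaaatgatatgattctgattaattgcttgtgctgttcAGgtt
DDX3X intron 6 (chrX:41342654-41342736, plus strand): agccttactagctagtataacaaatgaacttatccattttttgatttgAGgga
DDX18 intron 12 (chr2:117829006-117829288, plus strand): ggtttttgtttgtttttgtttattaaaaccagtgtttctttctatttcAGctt
Letters could be read for 27 of the 137 introns of the 10 reference transcripts, and 25 of the 27 began with GT and ended with AG. An exception was DDX24 intron 2 (chr14:94079070-94079234, minus strand), an annotated intron of 165 nt that begins with CT and ends with AC.
DDX24 intron 2: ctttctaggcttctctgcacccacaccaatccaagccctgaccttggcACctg
No read carried the junction of DDX24 intron 2, in 0 of 20 reads over the 4 samples, which allows a share of up to 15.0%.

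The joined exons around 4 introns described further on, among them those with the smallest p in DDX17 and DDX3X, are shown as they stand in the spliced transcript, with 20 bases on each side and the 2 bases on either side of the junction in capitals.
DDX17 intron 9 (chr22:38493772-38494020, minus strand): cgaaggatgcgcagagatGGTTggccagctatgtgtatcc
DDX17 intron 4 (chr22:38498151-38498439, minus strand): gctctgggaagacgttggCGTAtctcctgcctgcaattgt
DDX3X intron 15 (chrX:41346623-41346858, plus strand): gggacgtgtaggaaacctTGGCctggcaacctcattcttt
DHX9 intron 8 (chr1:182858241-182858550, plus strand): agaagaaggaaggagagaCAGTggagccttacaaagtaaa

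Splicing efficiency is the percentage of an intron's reads in which its flanking exons are joined. Reads joined at unannotated sites are counted with the unspliced ones, so a lower value need not mean that the intron was kept. Read-intron overlaps over all genes numbered 1346733 and 1185006 in WT versus 459681 and 909621 in K700E, so K700E replicate 1 was the shallowest sample. Of the 10 erythroid and leukaemia line genes used to check the cell line, 8 had reads in every sample (796 to 4075 overlaps in all, most of them over TFRC, with KLF1 at 0), against 1 of 6 lymphoid and epithelial genes (12 to 47 overlaps). The labels call the cells epithelial, which the origin of the line goes against. These counts do not settle it, since the epithelial gene EPCAM had reads in every sample. It stood at 12 and 6 overlaps in WT versus 12 and 3 in K700E. GATA1, on the erythroid list, stood at 4 and 11 in WT versus 6 and 10 in K700E. Whether replicates were separate cultures is not in the labels, and p-values therefore cover only the spread among these 4 samples, which may be technical. Over a gene, a long read is counted again at every intron it covers, so that introns of a gene share reads and are not replicates. Intervals cover counting error only, since no molecular identifiers are described.

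Over the most used introns, DDX39A and DDX17 transcripts had the highest mean splicing and DDX3X transcripts the lowest. With 4 samples the test used here could not resolve any step of this order. The most used of overlapping annotated introns were picked by their junction reads in these same 4 samples, which favours a high efficiency. Counting only these, DDX39A, whose protein takes part in mRNA export, stood at 92.1 and 96.2% in WT versus 93.5 and 98.7% in K700E. These DDX39A values rest on 38 and 53 overlaps in WT versus 31 and 75 in K700E. Its mean over all annotated introns was 31.2%. Over the most used introns DDX17 stood at 98.1 and 97.0% in WT versus 89.2 and 89.0% in K700E. DDX3X, whose protein helps structured mRNAs into translation, stood at 54.6 and 76.3% in WT versus 56.0 and 61.3% in K700E. The means of the 4 samples ran from 95.1% ± 2.91 (SD) for DDX39A through 93.3% ± 4.91 for DDX17, 87.7% ± 7.92 for DDX6, 82.8% ± 6.81 for DDX24 and 82.0% ± 15.1 for DDX21. They went on to 77.1% ± 12.3 for DDX39B, 75.0% ± 3.37 for DHX9, 69.0% ± 17.4 for DDX5, 65.5% ± 12.1 for DDX18 and 62.0% ± 9.91 for DDX3X. An exact two-sided permutation test of sign flips over the 4 samples gave p from 0.250 to 0.875 in 9 pairs of neighbours. The neighbours were picked by these same values, which favours small differences. The paralogs DDX17 and DDX5 lay 24.3 points ± 19.7 (SD) apart, with DDX17 higher in 4 of 4 samples, and here the exact permutation p was 0.125, the smallest that 4 samples allow. The test could therefore pass no pair at 0.05, so it cannot decide on the order. After Benjamini-Hochberg adjustment over the 10 pairs the smallest adjusted exact permutation p was 0.875.

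**Figure D1:**
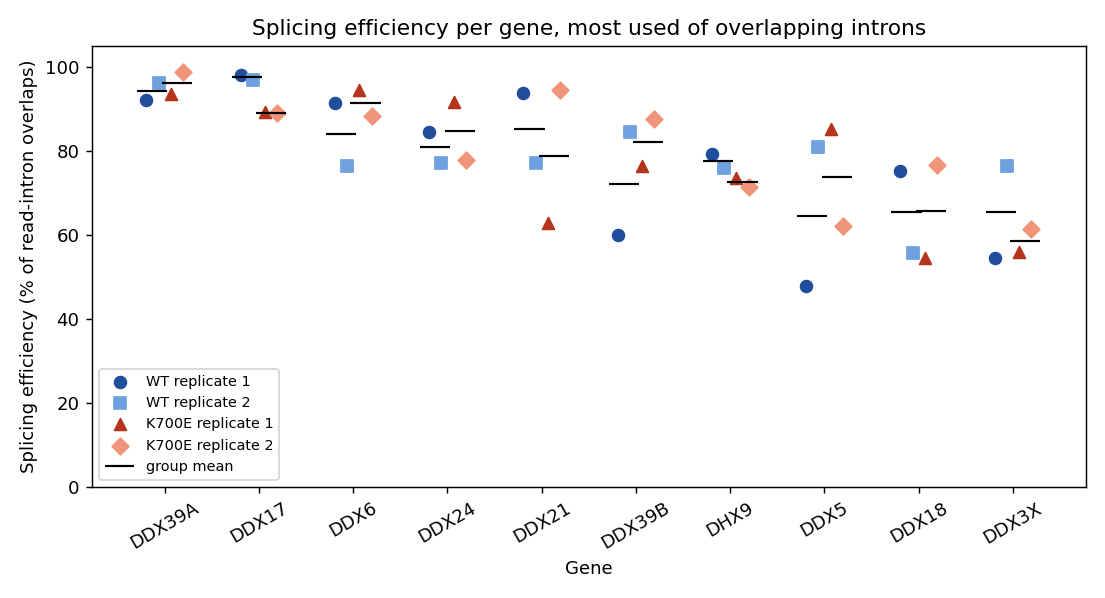
Splicing efficiency (% of read-intron overlaps, most used of overlapping introns) of the 10 helicase genes, ordered by the mean of 4 samples; each symbol is 1 sample and black lines are group means of 2 samples. The 2 K700E samples of DDX17 (89.2 and 89.0%) lie below its 2 WT samples (98.1 and 97.0%), while DDX5 spans 47.7 to 85.2% with its groups interleaved.

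DDX17 transcripts were less often spliced in both K700E samples at 7 of the 9 introns tested along the middle of the gene, though no test passed after adjustment. These introns share long reads and do not count as separate evidence. Of all introns tested, 19.9% were lower in both K700E samples. DDX17 (chr22:38483440-38507660, minus strand) held 2202 and 1327 read-intron overlaps in WT versus 450 and 520 in K700E. Over all its annotated introns, 92.9 and 92.6% of these were spliced in WT versus 83.3 and 79.6% in K700E. The WT samples lay close together and both K700E samples lay below them. The difference was -11.3 points (92.8% ± 0.213 against 81.5% ± 2.63, SD, n = 2 each), with a log2 odds ratio of -1.54 ± 0.34 (standard error). Its p of 0.00376 in edgeR's quasi-likelihood test ranked 7 of 5085 genes, and the Benjamini-Hochberg adjusted p was 1.00. Of the 10 helicase genes, DDX17 and DDX3X were lower in both K700E samples and 0 were higher in both, where 21.1% of all genes tested were lower and 10.3% higher in both. A share of 20.0% is thus close to that of genes in general. Over the most used introns, DDX17 and DHX9 were lower in both and 0 were higher, beside 20.9% and 9.94% of all genes. None of the 10 genes passed, and of all genes 0% did. At an unadjusted p under 0.05 stood 1 of the 10 (DDX17) and 3.34% of all genes. DESeq2 and limma also called none of the 10.

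DDX17 introns 2 to 10 had from 28 to 292 reads in each sample, and the 7 lower ones were introns 2, 3, 4, 6, 7, 8 and 9. Intron 9 of DDX17, of 249 nt within the coding sequence, was spliced in 100 and 100% of 219 and 133 WT reads, and in 87.5 and 88.7% of 48 and 53 K700E reads. The 95% Wilson intervals ran from 98.3 and 97.2% up to 100% in WT, and from 75.3 to 94.1% and 77.4 to 94.7% in K700E. WT values at this intron are set to 100% because the deposited junction reads, 220 and 135, exceed the reads over the intron. The difference of -11.9 points had a log2 odds ratio of -7.60 ± 2.28 and a p of 0.000847, rank 9 of 5093 introns, with an adjusted p of 0.479 in edgeR's quasi-likelihood test. Intron 4 of DDX17, of 289 nt and the least spliced of the 9, stood at 88.8 and 93.5% in WT versus 82.7 and 74.5% in K700E (edgeR adjusted p = 0.985). Both K700E values were below both WT values, and the means lay -12.5 points apart (91.2% ± 3.35 against 78.6% ± 5.76, SD, n = 2 each). Intron 8 of DDX17 stood at 100 and 94.3% in WT versus 83.3 and 89.4% in K700E, and its first WT value is likewise set to 100%, from 259 junction reads over 250 reads. Introns 5 and 10 of DDX17, of 2147 and 1594 nt, were those whose groups met. Intron 10 of DDX17 stood at 100 and 100% in WT versus 100 and 95.1% in K700E.

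Both ends of DDX17 were covered by few reads. Intron 1 of DDX17, of 4670 nt, carried its junction in 4 of 4 and 10 of 10 WT reads and in 3 of 8 and 1 of 3 K700E reads. These groups do not overlap, but the intron fell short of 10 reads in a sample and was not tested. From intron 10 to intron 11 of DDX17 the reads dropped from 194 and 124 to 29 and 6 in WT, and from 36 and 41 to 0 and 11 in K700E. The drop was seen in all 4 samples, so most long reads over the middle of DDX17 do not reach across intron 11.

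Over the introns of all 10 genes, 11 of 46 tested introns (23.9%) were lower in both K700E samples and 0 were higher in both, beside 19.9% and 9.19% of all 5093 introns tested. The share of lower introns is close to that of all introns, and 7 of the 11 belong to DDX17, which share reads. Of the others, 2 belong to DDX3X and 2 to DHX9. In direction, 29 of the 46 were lower and 17 higher in mean, beside 3137 lower and 1952 higher of all 5093 introns tested. Median efficiency per sample over the 46 was 72.5 and 87.0% in WT versus 86.0 and 70.6% in K700E, so the groups overlapped. Over all introns tested it was 93.1 and 88.9% in WT versus 83.3 and 88.9% in K700E. The median difference over the 46 was -2.99 points, beside -1.67 points over all introns. Leaving out the DDX17 introns, an alternative chosen after seeing the data, gave a median of -2.24 points. No helicase intron passed, where 0.0982% of all introns did, in edgeR's quasi-likelihood test, and at an unadjusted p under 0.05 stood 2 of 46 (introns 8 and 9 of DDX17) and 3.06% of all introns. These 2 DDX17 introns rest on WT values set to 100%, and both leave the tested set when ratios above 1 are left out. Without K700E replicate 2 the median over helicase introns was -0.583 points, and without WT replicate 1 it was -5.79 points.

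**Figure D2:**
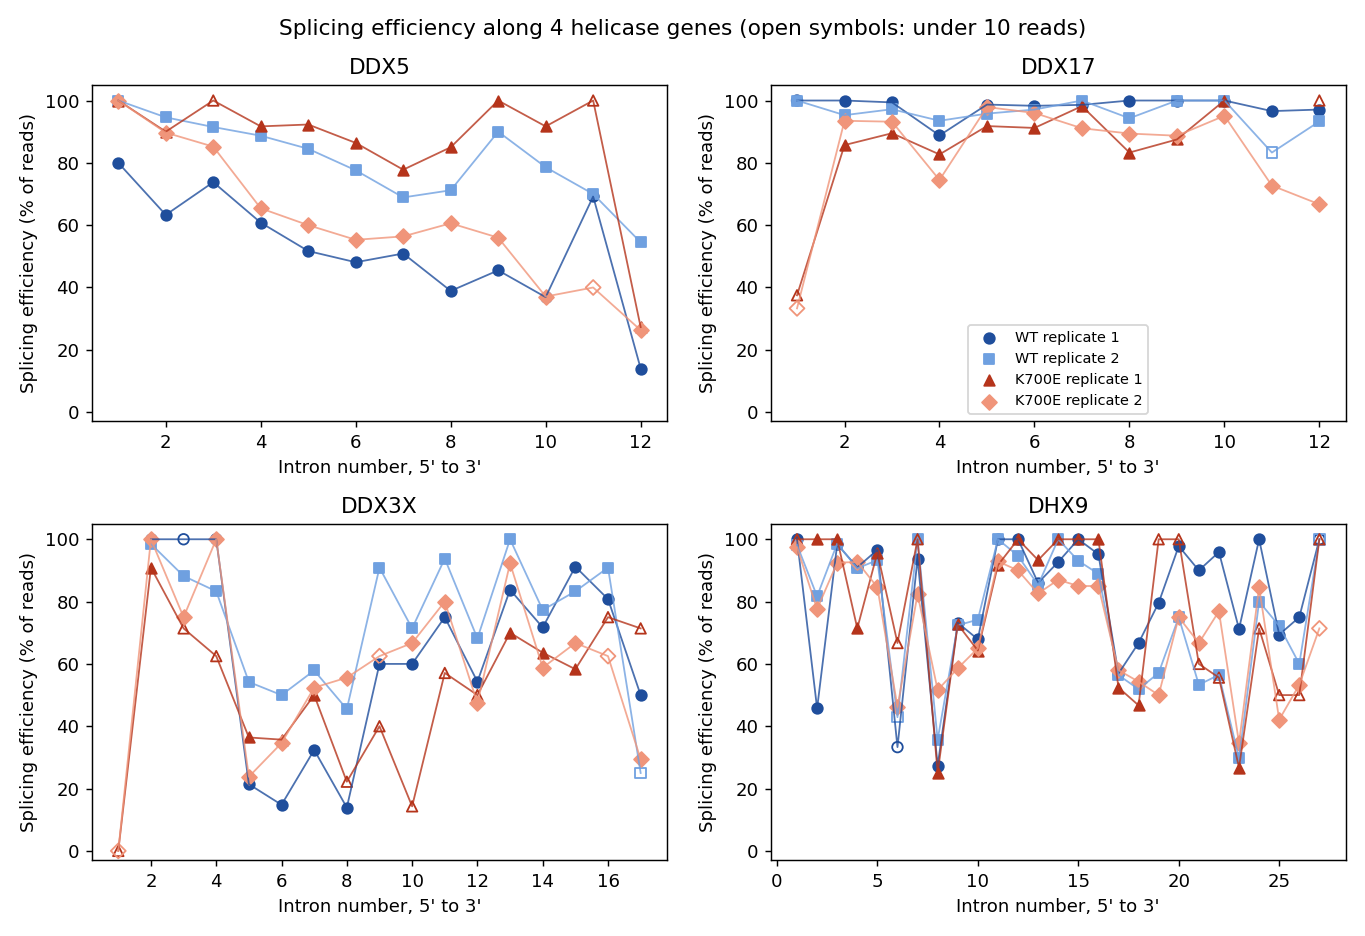
Splicing efficiency (% of reads) of each intron of the reference transcript of DDX5, DDX17, DDX3X and DHX9, from 5′ to 3′ by intron number; each line is 1 sample, and open symbols are introns with under 10 reads. DDX17 stays near the top in WT with both K700E lines mostly below, while the DDX5 lines fall towards the 3′ end and the WT and K700E samples interleave.

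DDX5 transcripts were far from fully spliced in some samples, and the split between samples did not follow genotype. DDX5 (chr17:64499616-64508199, minus strand) was spliced in 47.7 and 81.0% of overlaps in WT versus 85.2 and 62.2% in K700E over its most used introns, from 1061, 511, 162 and 328 overlaps. WT replicate 1 was lowest at 10 of 10 tested introns of DDX5 and K700E replicate 1 was highest, alone or tied, at 8 of 10. Means were higher in K700E at 9 of these 10 introns, with a median difference of 8.0 points over the 10, yet groups overlapped at every one of them. K700E replicate 2 lay below WT replicate 2 at 9 of the 10. Over all annotated introns the DDX5 difference of 1.57 points (47.0% ± 8.72 against 48.5% ± 13.7, SD, n = 2 each) had an adjusted p of 1.00 in edgeR's quasi-likelihood test. That difference was -4.60 points without WT replicate 1 and -8.12 without K700E replicate 1, so its direction rests on single samples. Depth moved with these values, as WT replicate 1 had the most reads over DDX5 and K700E replicate 1 the fewest, and its part in the result was not tested.

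Within DDX5, introns near the 3′ end were spliced less often than those near the 5′ end in each sample. Introns 1 to 6 of DDX5 were spliced in 56.8 and 87.8% of overlaps in WT versus 91.9 and 74.9% in K700E. Introns 7 to 12 of DDX5 were spliced in 40.0 and 72.2% in WT versus 79.5 and 48.7% in K700E. The later introns thus lay lower in 4 of 4 samples. Intron 12 of DDX5, of 222 nt, was the least spliced of its most used introns, at 14.0 and 54.5% in WT versus 27.3 and 26.3% in K700E. Its WT values spanned both K700E values. Intron 8 of DDX5, with the smallest p among DDX5 introns, stood at 38.9 and 71.2% in WT versus 85.0 and 60.6% in K700E. The difference of 17.8 points came with an SD of 22.8 in WT versus 17.2 in K700E, and an edgeR adjusted p of 0.985. It was 1.65 points without WT replicate 1, 33.9 without WT replicate 2 and 5.58 without K700E replicate 1, so single samples set its size.

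DDX5 intron 11 ends in a microRNA gene. The MIR3064 hairpin, from RefSeq on GRCh38.p14, covers chr17:64500774-64500839 on the minus strand, the last 66 nt of the intron, so that its final AG (in capitals) is the end of the intron itself.
MIR3064 hairpin: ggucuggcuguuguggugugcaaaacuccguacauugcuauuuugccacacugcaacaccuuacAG
The mature forms, with the seed (bases 2 to 8) in capitals, lie on either arm.
miR-3064-5p: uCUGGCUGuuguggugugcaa
miR-3064-3p: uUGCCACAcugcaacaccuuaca
DDX5 intron 11 was spliced in 69.2 and 70.0% of 13 and 10 WT reads, and in 100 and 40.0% of 4 and 5 K700E reads. The K700E values lie on either side of WT, and at this depth no difference was detectable.

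In DDX3X (chrX:41333284-41364472, plus strand) both K700E samples lay slightly below both WT samples over all annotated introns, at 30.9 and 27.6% in WT versus 23.7 and 25.1% in K700E. The difference was -4.84 points, with an edgeR adjusted p of 1.00. These low levels include 51 annotated introns, many overlapping, in which a read joined at 1 intron counts as unspliced in the others. Over the most used introns the DDX3X groups overlapped. Intron 15 of DDX3X, of 236 nt, was spliced in 91.2 and 83.3% of 34 and 18 WT reads and in 58.3 and 66.7% of 12 and 15 K700E reads. Both K700E values were below both WT values, by -24.8 points in mean (87.3% ± 5.55 against 62.5% ± 5.89, SD, n = 2 each). The log2 odds ratio was -2.14 ± 1.27, with an edgeR adjusted p of 0.985, and the Wilson intervals of the second WT sample (60.8 to 94.2%) and the first K700E sample (32.0 to 80.7%) overlap. Among its most used introns with 10 reads in each sample, introns 5 and 6 of DDX3X, whose 3′ ends are printed above, were spliced least: intron 6 stood at 14.8 and 50% in WT versus 35.7 and 34.6% in K700E. Intron 5 of DDX3X stood at 21.4 and 54.2% in WT versus 36.4 and 23.8% in K700E, again with overlapping groups.

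DHX9 (chr1:182839369-182887751, plus strand) had 16 tested introns, the most of any of the genes, none of which passed. Over its most used introns 79.2 and 76.0% of overlaps were spliced in WT versus 73.6 and 71.3% in K700E. Both K700E samples lay below both WT samples here, a difference of -5.15 points in the means, but over all annotated introns, at 75.5 and 69.8% in WT versus 70.7 and 65.9% in K700E, the groups overlapped. Adjusted p-values were 1.00 in edgeR's quasi-likelihood test on either count, and 0.0235% of all genes passed on the most used introns. Intron 11 of DHX9 had the smallest p of its introns: it stood at 100 and 100% in WT versus 91.7 and 92.9% in K700E, from 39, 24, 12 and 28 reads (the second WT value is set to 100%, from 25 junction reads), with an edgeR adjusted p of 0.985. Intron 8 of DHX9, of 310 nt, was the least spliced of its most used introns, at 27.3 and 35.7% in WT versus 25.0 and 51.6% in K700E. The K700E values lay on either side of the WT ones.

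In DHX9 short introns were spliced less often than long ones in each sample. The 7 well covered introns under 400 nt were spliced in 64.3 and 57.1% of overlaps in WT versus 54.4 and 59.7% in K700E. The 9 of at least 400 nt were spliced in 92.5 and 92.3% in WT versus 95.0 and 87.3% in K700E. Long DHX9 introns were higher in 4 of 4 samples, and neither group of introns separated WT from K700E. Spearman's rho between length and mean efficiency was 0.84 over the 16 DHX9 introns, 0.45 over 10 DDX5 introns and 0.20 over 9 DDX17 introns. These are descriptions across introns that share reads and libraries. DDX5 introns were short, with a median of 218 nt, and DDX17 introns long, with a median of 1129 nt. Yet the 3 short well covered introns of DDX17 were spliced in 96.1 and 98.0% in WT versus 89.7 and 84.8% in K700E, above the 9 short DDX5 introns in each sample (45.5 and 78.9%, then 83.0 and 56.9%). In DDX3X the 4 short introns stood at 49.4 and 65.2% in WT versus 51.0 and 50.6% in K700E, against 65.0 and 89.0%, then 72.1 and 75.4%, for the 3 long ones. How reads were counted bears on length. In 99.9% of 28308 comparisons between introns sharing an end, the longer intron never had more reads than the shorter, so counted reads cross the whole intron and an unspliced long intron needs a longer read than a spliced one. The part of read length in these differences was not tested.

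**Figure D3:**
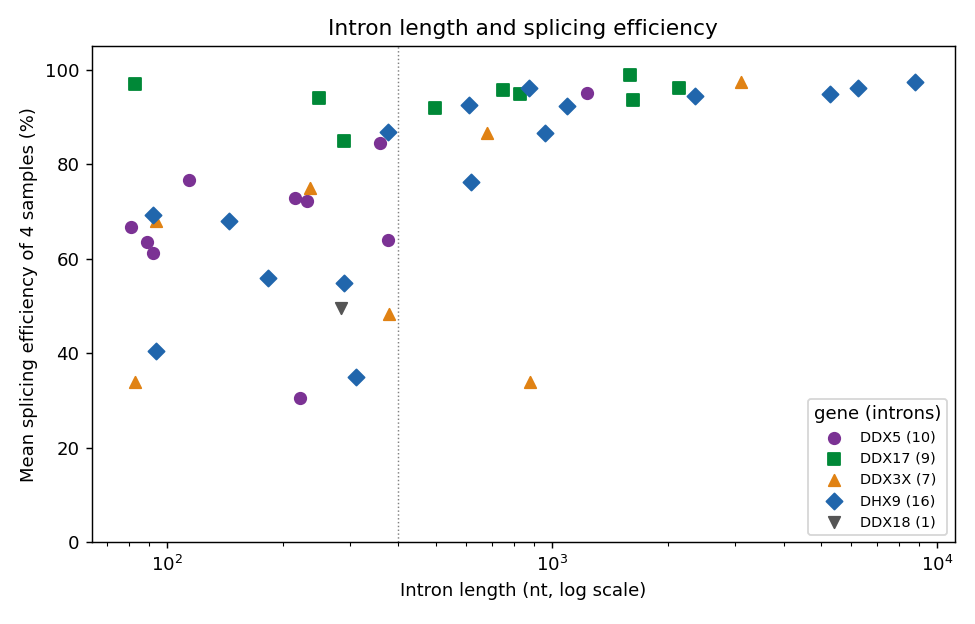
Mean splicing efficiency of 4 samples (%) against intron length (nt, log scale) for the most used introns, where each sample has 10 reads or more; each symbol is 1 intron, coloured by gene, and the dotted line marks 400 nt. DHX9 introns rise with length (Spearman's rho 0.84, 16 introns), while DDX17 introns stay high at every length.

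The 3 genes of nucleolar ribosome assembly, DDX21, DDX18 and DDX24, were too thinly covered for most tests. DDX21 was spliced in 93.7 and 75.6% of overlaps in WT versus 61.1 and 92.0% in K700E, from 205, 168, 36 and 75 overlaps. Each group held a high and a low sample. DDX18 stood at 66.4 and 49.1% in WT versus 49.0 and 62.0% in K700E. Its single tested intron, intron 12, was spliced in 56.5 and 25.0% of 46 and 16 WT reads and in 50 and 66.7% of 10 and 12 K700E reads (edgeR adjusted p = 0.985). Introns 4 and 5 of DDX18, of 353 and 111 nt, were spliced in 0 of 4 and 0 of 5 reads in K700E replicate 1, counts too low to set a level. DDX24 stood at 80.9 and 71.1% in WT versus 84.6 and 63.6% in K700E, from as few as 13 overlaps.

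DDX6, a cytoplasmic helicase of mRNA decay and storage, and the mRNA export helicases DDX39A and DDX39B showed no separation either. DDX6 was spliced in 82.5 and 64.5% of overlaps in WT versus 70.0 and 72.4% in K700E. DDX39A stood at 37.8 and 29.4% in WT versus 24.6 and 32.9% in K700E over all 25 annotated introns, far below its most used introns because unused overlapping introns are counted. DDX39B stood at 26.2 and 24.6% in WT versus 25.9 and 26.6% in K700E, a difference of 0.817 points. Over the most used introns, DDX39B stood at 60.0 and 84.4% in WT versus 76.5 and 87.5% in K700E, from 35, 32, 17 and 40 overlaps. On both counts the groups of DDX5, DDX21, DDX18, DDX24, DDX6, DDX39A and DDX39B overlapped, with edgeR adjusted p-values of 1.00.

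Many annotated introns of these genes had no junction read in the nascent RNA. Of the 235 introns, 155 had a junction read in any sample and 80 had none. Among 61 introns with 10 or more reads in each sample, 15 had no junction read at all: 8 of 18 in DDX3X, 6 of 16 in DDX5 and 1 of 1 in DDX6. All 15 overlap a more used intron, and a read joined there counts as unspliced here. Neither share was counted over all introns, so these counts are not a trait of the helicase genes. Of all introns at this depth, 5093 of 6141 were spliced in some but not all reads, beside 46 of the 61. Only a single pair of 3′ splice sites sharing a 5′ splice site could be compared, and its sites belong to different exons. From the 5′ splice site of DDX3X at chrX:41334298, reads joined to 41337407 in 100 and 98.5% of junctions in WT and 95.2 and 100% in K700E, rather than to 41341483, 4076 nt away. The nearer site ends intron 2 of DDX3X and the farther one intron 4, so the farther junction skips the exons between. This pair therefore cannot address alternative 3′ splice sites of the same exon. The groups overlapped, the difference was -1.61 points (99.2% against 97.6%), and the exact two-sided permutation p was 1.00, where 2 samples against 2 allow none under 0.33. Sites closer than 12 nt are not resolved in these tables, and of the 13 pairs with a junction read at both sites only 1 lay under 40 nt apart.

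Nascent coverage of the helicase genes was lower in mean in K700E for 8 of 10, beside 2564 lower and 2557 higher of all genes tested, yet none of the 10 passed. Coverage is given as overlaps in CPM (counts scaled to a common library size) after TMM normalization. Levels are compared within a gene only, since they grow with the number of annotated introns and depend on intron length. DDX17 stood at 1971 and 1258 in WT versus 971 and 590 in K700E, and DDX5 at 1110 and 738 in WT versus 511 and 596 in K700E. In both paralogs, each K700E sample lay below each WT sample. The log2 fold changes were -1.05 ± 0.55 (standard error) for DDX17 and -0.74 ± 0.56 for DDX5, with adjusted p-values of 0.752 and 0.827 in edgeR's quasi-likelihood test. Without WT replicate 1 they were -0.69 for DDX17 and -0.42 for DDX5. DDX21 stood at 183 and 159 in WT versus 77.7 and 85.1 in K700E, and DDX24 at 60.9 and 36.0 in WT versus 28.0 and 25.0 in K700E. Their log2 fold changes were -1.07 ± 0.69 and -0.87 ± 0.74, the latter -0.45 without WT replicate 1. DDX39A was the exception in the other direction, at 87.7 and 171 in WT versus 255 and 255 in K700E (log2 fold change 0.98 ± 0.64, edgeR adjusted p = 0.807, and 0.58 without WT replicate 1 or 1.52 without WT replicate 2). Thus 4 of 10 genes were lower and 1 higher in both K700E samples, where 17.3% of all genes tested were lower and 18.2% higher in both.

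The other 5 genes had overlapping groups. DDX3X stood at 874 and 1053 in WT versus 1018 and 881 in K700E, a log2 fold change of -0.02. DHX9 stood at 1194 and 1024 in WT versus 671 and 1069 in K700E. DDX6 and DDX18 each had their highest value in WT replicate 1, at 430 and 357 against 115 and 153 in the second WT sample. DDX39B stood at 71.6 and 123 in WT versus 116 and 162 in K700E. The median log2 fold change was -0.72 over the 10 genes and -0.00 over all 5121 genes tested. Of all genes 0.0781% passed, and at an unadjusted p under 0.05 stood 0 of the 10 and 6.78% of all genes. In bulk samples fewer cells and less RNA per cell cannot be told apart.

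**Figure D4:**
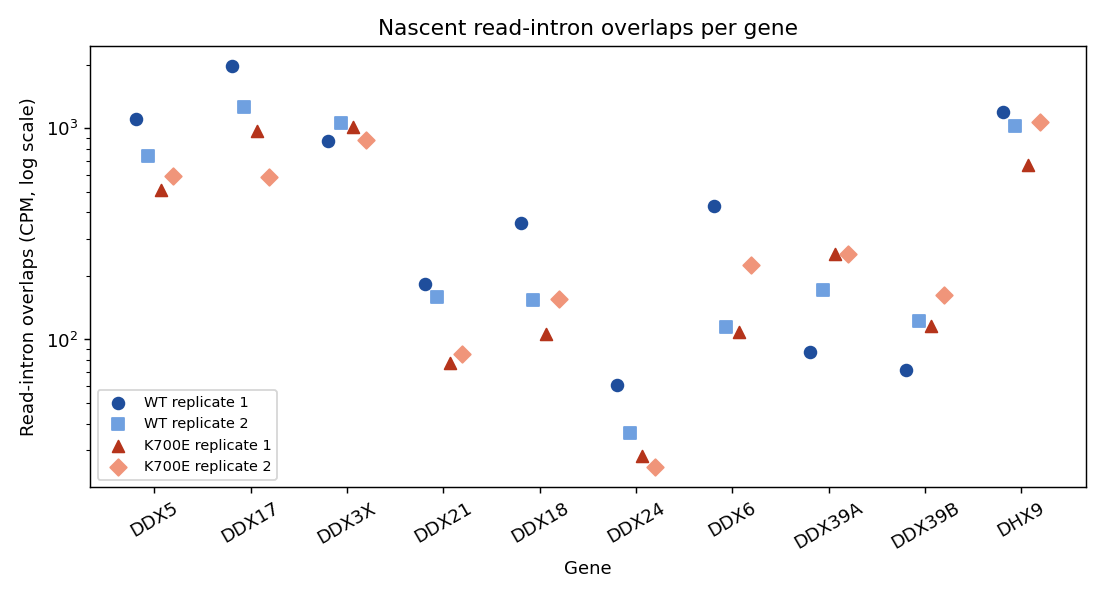
Read-intron overlaps as CPM (log scale) over the annotated introns of each helicase gene; each symbol is 1 sample, and values are comparable within a gene only. Both K700E samples lie below both WT samples for DDX5, DDX17, DDX21 and DDX24, and above them for DDX39A.

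No gene passed either in a list of other DEAD and DEAH box genes outside the core spliceosome. Of 36 genes listed, 23 could be tested: 13 were lower and 10 higher in mean efficiency in K700E over all annotated introns, with a median of -3.40 points. On that count the median was -3.30 over the 10 helicase genes, 8 of them lower and 2 higher. It was -2.55 over all genes, 3173 of them lower and 1911 higher. Over the most used introns the sign turned for the 10 helicase genes, 4 lower and 6 higher with a median of 1.02 points. There the median was -3.51 over 22 of the listed genes and -2.94 over all genes, 2634 of these lower and 1622 higher. In both K700E samples 6 of the 23 (26.1%) were lower and 4 (17.4%) higher, beside 21.1% and 10.3% of all genes. The smallest p belonged to DDX55, a ribosome assembly helicase, at 29.9 and 38.0% in WT versus 8.86 and 12.3% in K700E. DDX27, also of ribosome assembly, stood at 30 and 21.4% in WT versus 66.7 and 68.0% in K700E, higher in both mutant samples, from 14 to 50 overlaps. DDX42, a helicase that associates with the SF3B complex, stood at 66.6 and 45.6% in WT versus 39.6 and 29.2% in K700E, and DDX56 at 54.7 and 45.8% in WT versus 31.9 and 31.8% in K700E. The edgeR adjusted p of all 4 was 1.00.

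Among 944 genes with at least 100 overlaps in every sample, those whose efficiency was most like that of DDX17 over the 4 samples were ALDH1L2, DIP2A and TLN1, with mean absolute differences of 2.09, 2.15 and 2.54 points. Those most like DDX5 were HSPG2, ZDHHC17 and HSP90AB1, at 3.10, 5.53 and 5.84 points. The likeness rests on 4 samples and all annotated introns.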

How the data were processed

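Reads were handled with cutadapt and minimap2 on the hg38 build, per the submitters' processing notes, with settings not given in the sources used here. For each sample the authors deposited a table of annotated introns with raw read counts over the intron and over its junction, and the ratio of these counts, which the deposited files give to 2 decimals. A table of RNA 3′ end positions was not used because its rows bear no identifiers. The K700E tables carry in-file labels MUT2 and MUT3; samples follow the series records.

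Rows were placed on GENCODE 29 introns by transcript, intron number, start and strand (87.3 to 87.6% of rows); rows of the same intron were counted once, with the highest count. Unspliced reads are those over the intron less those with its junction; a ratio above 1 (2.23 to 4.16% of rows) was set to 1. Tests of efficiency used edgeR 4.0.16 under R 4.3.3 (quasi-likelihood F test on spliced and unspliced counts, Benjamini-Hochberg adjustment over all introns or genes, threshold 0.05), in introns with at least 10 reads, or genes with at least 10 overlaps, in every sample. Introns spliced in all or no reads of every sample were not tested, which left 5093 of 6141. For introns the dispersion was set to 0, so that the spread is pooled over introns and the scatter of a single intron has little weight in its p. For genes and for coverage (TMM) it was estimated. The fits were tested on simulated data. Alternatives were DESeq2 1.42.0, limma 3.58.1 on log2 odds with 0.5 added to both counts, other read minimums, other intron choices, a replicate block and each sample left out.

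All 10 genes are named, with the smallest-p intron and the least spliced of the most used introns for the 5 genes that had tested introns; of other helicases, the 4 with the smallest p; for likeness, 3 genes each; of splice site pairs, those whose groups do not overlap (1 of DHX9 and 1 of DDX39A). The 2 DDX3X pairs fall outside this rule. Introns 1, 5, 8, 10 and 11 of DDX17, 11 of DDX5, 5 of DDX3X, 4 and 5 of DDX18 and 2 of DDX24 were chosen after their values were seen. The members and lists were chosen with earlier results of these data known.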

Additional observations from a re-analysis of the deposited data

How the results depend on the processing

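No helicase gene or intron passed the threshold under any alternative run. The number of all introns passing, 5 as reported, was 0 with DESeq2, 0 with limma, 2 with an estimated dispersion and 0 to 12 with a sample left out. The number of genes passing on efficiency, 0 as reported, was 1 with DESeq2 and 1 with the most used of overlapping introns. The number passing on coverage, 4 as reported, was 11 with DESeq2, 1 with library size alone, 0 with the most covered intron, 30 without a filter and 0 to 58 with a sample left out. The labels do not say whether same-numbered samples were handled together. Same-numbered deviations had a correlation of -0.0874 over introns and -0.064 over genes, which with 2 samples per group cannot exclude a shared batch. With the replicate block 3 introns, 0 genes on efficiency and 4 on coverage passed. The median over helicase introns ranged from -5.79 to -0.583 points with a sample left out, and was -4.08 at 20 reads, -3.12 at 5 reads, -2.86 over the most used introns and -2.44 with ratios above 1 left out, which leaves 41 of the 46 introns and removes introns 8 and 9 of DDX17 and 11, 12 and 15 of DHX9. The DDX3X splice site pair ranged from -3.99 to 0.769 points with a sample left out, was the same with sites at least 30 nt apart, and had no value at 20 junction reads.

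Of 248 values of helicase genes and introns under alternatives, 229 kept their direction and 19 reversed, and the cause was not tested. Many of the 229 could not reverse, so this count does not measure robustness. A change of tool, dispersion or replicate block leaves an efficiency difference in points as it is. In DDX5 it stayed at 1.57 points with DESeq2, limma, a dispersion of 0 and the replicate block. With the most used introns the efficiency difference was 0.102 points in DDX18, 3.84 in DDX24, 7.5 in DDX6 and 1.94 in DDX39A; with introns of at least 10 reads it was 17.6 in DDX18. With library size alone the DDX3X coverage fold was 0.20 (log2). With a sample left out, efficiency differences ranged from -8.12 to 11.3 points in DDX5, -23.5 to 7.37 in DDX21, -10.9 to 6.44 in DDX18, -12.3 to 8.65 in DDX24, -11.4 to 6.72 in DDX6 and -0.000324 to 1.63 in DDX39B, and coverage folds (log2) from -0.15 to 0.10 in DDX3X and -1.37 to 0.55 in DDX6. Depth limits DDX21, DDX24, DDX39A and DDX39B most, where no intron reached the read minimum.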

Other observations

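Among pairs of 3′ splice sites under 10 junction reads in a sample, 2 had groups that do not overlap, in opposite directions, and are given without a test. From the 5′ splice site of DHX9 at chr1:182854179, the site at 182855576 took 5 of 6 and 7 of 10 junction reads in WT and 3 of 5 and 6 of 12 in K700E, with the others at 182856531, 955 nt away. These shares are 83.3 and 70.0% in WT versus 60.0 and 50% in K700E, from counts too low to resolve the groups. From the 5′ splice site of DDX39A at chr19:14413012, the site at 14412679 took 6 of 7 and 12 of 13 junction reads in WT, against 7 of 7 and 15 of 15 in K700E, with the others at 14412815, 136 nt away. These shares are 85.7 and 92.3% in WT versus 100 and 100% in K700E, and 1 read in each WT sample makes the difference. From the DDX3X 5′ splice site at chrX:41337466, reads joined at 41339035 rather than 41337690 in 5 of 6 and 15 of 23 WT junctions and in 5 of 5 and 9 of 11 K700E junctions, where the groups overlapped; this pair was chosen after its values were seen.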
